A study of Mus musculus with 203 samples.

Results

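The type I interferon response genes described here are 34 genes that cells switch on when they sense interferon: Irf1, Irf7, Irf9, Stat2, Ddx58, Ifih1, Dhx58, Zbp1, Eif2ak2, Oas1a, Oas2, Oas3, Oasl1, Oasl2, Ifit1, Ifit2, Ifit3, Mx1, Mx2, Gbp2, Gbp3, Isg15, Usp18, Herc6, Isg20, Rsad2, Cmpk2, Bst2, Trim30a, Ifi44, Rtp4, Xaf1, Parp14 and Ifi35. They were chosen by name from the 43346 genes of the count table, by a rule that uses no measured level, though earlier results of these data were known when the list was made, and all 34 passed the filter on low counts. Bulk RNA-seq was performed on airway and parenchyma dissected from lungs of female Balb/C mice aged 18 to 20 weeks, in 43 libraries at 3 weeks and 160 at 11 weeks, of 20 groups. At 3 weeks, mice had received house dust mite extract (HDM, an allergen that produces experimental asthma) into the nose on 5 days per week, or phosphate buffered saline (PBS). These groups held 11 PBS and 10 HDM airway libraries and 12 PBS and 10 HDM parenchyma libraries. At 11 weeks, all 16 groups held 10 libraries: mice given PBS or HDM, breathing normal air (AIR) or cigarette smoke (CS) from week 4, with or without the glucocorticoid dexamethasone (DEX) during week 11, in each tissue. The labels give HDM on 5 days per week for 3 weeks and 3 times per week from week 4 to week 11, without saying plainly whether the 11-week mice had both phases, and smoke at 2 times per day on 5 days per week for 8 weeks. The labels name no genetic alteration in any group, and each group is named by its exposures, as in HDM.CS.DEX.

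Type I interferons (interferon alpha and beta) bind one receptor on nearly all cells, which acts through JAK1 and TYK2 to assemble the complex ISGF3, which holds STAT2 and IRF9. ISGF3 binds the interferon-stimulated response element in front of its target genes, whose products sense foreign nucleic acid, degrade or sequester viral RNA and tag proteins with ISG15. Interferon gamma binds a receptor of its own, acts in part through IRF1 and raises part of the same set, among them the guanylate-binding proteins, and in the lung the response is best known from virus infection and from allergic airway disease with a viral trigger.

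The response element was looked for by its spelling GAAANNGAAA on either strand (TTTCNNTTTC on the other) in RefSeq promoter windows of GRCm38.p6 that run from 250 bases before to 50 bases after the start of a gene. Of the 34 genes, 26 had a window, and 14 of these held the spelling: Stat2, Ddx58, Ifih1, Eif2ak2, Oas1a, Oas3, Ifit1, Ifit3, Gbp2, Gbp3, Isg15, Rsad2, Bst2 and Trim30a. Among all 27025 genes with a window, 3.99% held it. The gamma-activated site spelling TTCNNNGAA was found in 7 of the 26 genes and in 9.55% of all genes. No match says only that these letters were not in the window. The 250 bases before the start are printed for 6 genes that carried the spelling and stand for different roles (a tag, RNA binders, a sensor of double-stranded RNA, an effector and a GTPase), 5′ to 3′ along the strand of the gene, with every match of the response element in capitals.
Isg15: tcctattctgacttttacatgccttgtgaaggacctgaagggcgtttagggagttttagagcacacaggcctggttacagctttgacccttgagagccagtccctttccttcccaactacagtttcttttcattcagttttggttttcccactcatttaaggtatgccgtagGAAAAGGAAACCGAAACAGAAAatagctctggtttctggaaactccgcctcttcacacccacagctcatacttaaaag
Ifit1: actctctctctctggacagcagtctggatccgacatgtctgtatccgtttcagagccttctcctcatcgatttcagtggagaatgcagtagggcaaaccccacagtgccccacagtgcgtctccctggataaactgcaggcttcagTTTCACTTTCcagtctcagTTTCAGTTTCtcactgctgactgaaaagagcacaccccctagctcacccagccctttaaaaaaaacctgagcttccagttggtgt
Ifit3: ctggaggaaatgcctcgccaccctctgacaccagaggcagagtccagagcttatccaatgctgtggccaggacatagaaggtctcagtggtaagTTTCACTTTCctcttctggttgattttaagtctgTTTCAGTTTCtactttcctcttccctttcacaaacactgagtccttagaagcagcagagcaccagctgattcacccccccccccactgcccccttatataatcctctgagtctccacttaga
Oas3: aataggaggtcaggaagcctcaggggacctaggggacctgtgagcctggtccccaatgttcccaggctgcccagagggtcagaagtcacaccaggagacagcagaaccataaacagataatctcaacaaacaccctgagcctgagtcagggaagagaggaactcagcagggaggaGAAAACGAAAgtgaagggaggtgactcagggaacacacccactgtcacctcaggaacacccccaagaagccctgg
Rsad2: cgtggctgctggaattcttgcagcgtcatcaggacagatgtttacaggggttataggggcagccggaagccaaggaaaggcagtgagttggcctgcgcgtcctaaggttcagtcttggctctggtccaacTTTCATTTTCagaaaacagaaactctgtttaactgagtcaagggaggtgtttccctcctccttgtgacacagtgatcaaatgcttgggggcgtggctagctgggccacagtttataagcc
Gbp2: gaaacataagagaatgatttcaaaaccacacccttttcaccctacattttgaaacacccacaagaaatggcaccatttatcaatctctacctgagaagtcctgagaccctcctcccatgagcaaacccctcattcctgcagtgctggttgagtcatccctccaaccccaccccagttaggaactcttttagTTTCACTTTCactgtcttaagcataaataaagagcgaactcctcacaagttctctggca

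These windows lie at chr4:156200819-156201068 (Isg15, minus strand), chr19:34640639-34640888 (Ifit1, plus strand), chr19:34583279-34583528 (Ifit3, plus strand), chr5:120777660-120777909 (Oas3, minus strand), chr12:26456453-26456702 (Rsad2, minus strand) and chr3:142620413-142620662 (Gbp2, plus strand). Isg15 held 3 overlapping matches, the first 78 bases before the start. Ifit1 and Ifit3 held 2 matches each. Oas3, Rsad2 and Gbp2 held 1 match each, beginning 75, 120 and 59 bases before the start. A match is a description of the letters and was not tested as a binding site.

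Total counts ran from 13003087 to 40240680 per library with a median of 28090612, and the lowest was a single parenchyma HDM.AIR.DEX library (code X32) with the next at 18756055. The 5 airway markers (Scgb1a1, Foxj1, Krt5, Acta2, Col2a1) were all higher in airway than in parenchyma of PBS mice at 3 and at 11 weeks, and the 5 parenchyma markers (Sftpc, Ager, Hopx, Sftpa1, Lamp3) were all lower. The mean log2 level of the first set less the second was -5.51 in the highest parenchyma library, and 13 of 101 airway libraries lay under it. The airway library with the lowest value, X109 of HDM.AIR, was at -7.32, within the parenchyma range. Levels below are counts per 1000000 (CPM) after scaling by the trimmed mean of M-values (TMM), given as the lowest to the highest library with the median. Changes are log2 fold changes (log2FC) ± SE from limma-voom, with p-values adjusted by the Benjamini-Hochberg method over all genes tested, and a gene was called higher or lower at an adjusted p under 0.05. The labels do not say whether libraries of one group came from different mice, so tests measure the spread between these libraries.

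Across all libraries the 34 genes differed widely in level. Per kilobase of exon, the median was highest for Bst2 (tetherin, which holds budding virus at the cell surface), at 65.3 CPM per kb, followed by Ifit3 at 39.2, Ifi35 at 32.5 and Irf1 at 29.3. It was lowest for Oas3, at 0.544 CPM per kb, and Mx1, at 1.10. The group with the highest mean level was HDM parenchyma at 3 weeks for 30 of 34 genes, HDM airway at 3 weeks for 3 (Usp18, Mx1 and Isg20) and PBS airway at 3 weeks for Ifi35. The lowest mean was in PBS.CS.DEX airway for 18 genes.

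**Figure D1:**
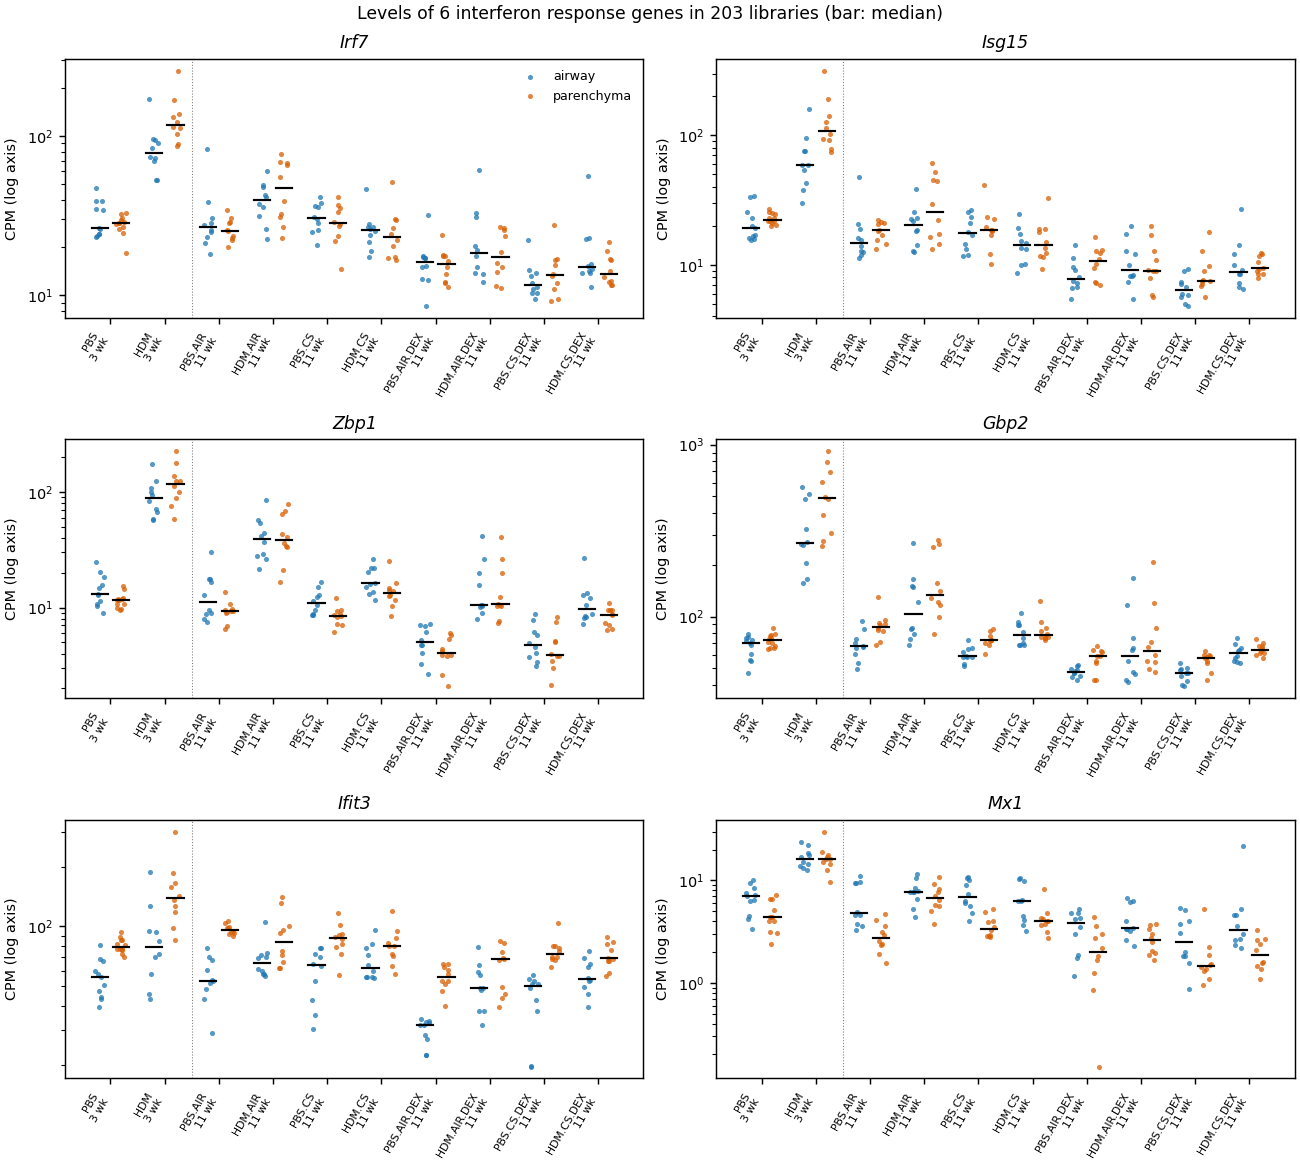
CPM (log axis) of Irf7, Isg15, Zbp1, Gbp2, Ifit3 and Mx1 in each library by exposure and week, with airway in blue, parenchyma in orange and a bar at the median. In each tissue the HDM libraries at 3 weeks have the highest median for each gene, and Zbp1 medians fall from 117.8 CPM in HDM parenchyma at 3 weeks to 3.89 CPM in PBS.CS.DEX parenchyma.

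The first comparison sets airway beside parenchyma in mice given PBS, where most of the 34 genes were not called. At 3 weeks, 4 genes were higher in airway (Oas1a, Mx1, Isg20, Usp18), against 24.3% of all genes, and 6 were lower (Ifit3, Herc6, Xaf1, Ifih1, Irf1, Trim30a), against 31.7%. At 11 weeks in PBS.AIR mice the counts were 5 higher (the same 4 and Oas2), against 26.3%, and 10 lower (the same 6 with Stat2, Ddx58, Ifit2 and Parp14), against 30.1%. Ifit3, which binds viral RNA together with Ifit1, had PBS values of 39.2 to 80.7 CPM (median 55.6) in airway and 70.5 to 94.1 CPM (median 79.1) in parenchyma at 3 weeks, with overlapping ranges and an airway less parenchyma log2FC of -0.54 ± 0.17, adjusted p = 0.0059. At 11 weeks the Ifit3 ranges in PBS.AIR mice were apart, 29.01 to 77.5 CPM (median 53.4) in airway and 89.8 to 106.7 CPM (median 96.5) in parenchyma. Its log2FC was -0.81 ± 0.15, adjusted p = 1.1e-06. Mx1 was higher in airway at both times, by 0.57 ± 0.22 at 3 weeks and 1.06 ± 0.29, adjusted p = 0.00084 at 11 weeks. The 3-week count of genes lower in airway was 3 to 6 when each set of 20 consecutive library codes was left out. With airway and parenchyma libraries of consecutive codes taken as a replicate block, the counts were 6 higher and 7 lower at 3 weeks. At 11 weeks they were 9 higher and 12 lower. The shares of all genes above are those of the main fit.

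At 3 weeks of PBS, the largest differences were those of Oas1a (0.59 ± 0.16, adjusted p = 0.0019), Mx1 (adjusted p = 0.022), Isg20 (0.55 ± 0.12, adjusted p = 0.00011) and Usp18 (0.50 ± 0.13, adjusted p = 0.0013) on the higher side. On the lower side after Ifit3 came Herc6 (-0.49 ± 0.14, adjusted p = 0.0033), Xaf1 (-0.38 ± 0.13, adjusted p = 0.011) and Ifih1 (-0.37 ± 0.10, adjusted p = 0.0026). At 11 weeks the higher side held Oas2 (0.95 ± 0.25, adjusted p = 0.00056), Oas1a (0.66 ± 0.19, adjusted p = 0.0014) and Usp18 (0.61 ± 0.13, adjusted p = 1.6e-05), and the lower side Irf1 (-0.51 ± 0.11, adjusted p = 4.9e-05), Ddx58 (-0.40 ± 0.07, adjusted p = 5.8e-07) and Parp14 (-0.39 ± 0.10, adjusted p = 0.00056). Oas3 and Mx2 at 3 weeks, and Dhx58 and Oasl1 at 11 weeks, differed least, at 0.01 ± 0.44, -0.02 ± 0.17, 0.04 ± 0.13 and 0.06 ± 0.24.

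The next comparison asks what 3 weeks of HDM did to the interferon response genes in each tissue. With HDM, 29 of 34 genes were upregulated in airway, against 34.1% of all genes tested, and 1 was downregulated (Ifi35), against 40.5%. In parenchyma 31 were upregulated, against 33.4%, and none was called lower. The median log2FC of the 34 genes was 1.01 in airway and 1.36 in parenchyma, where the median of all genes tested was -0.07 and -0.13. Every HDM library lay above every PBS library for 18 genes in airway, against 11.7% of all genes, and for 26 in parenchyma, against 20.3%. The genes that were not called were Ifih1, Mx2, Cmpk2 and Xaf1 in airway and Ifih1, Mx2 and Ifi35 in parenchyma.

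**Figure D2:**
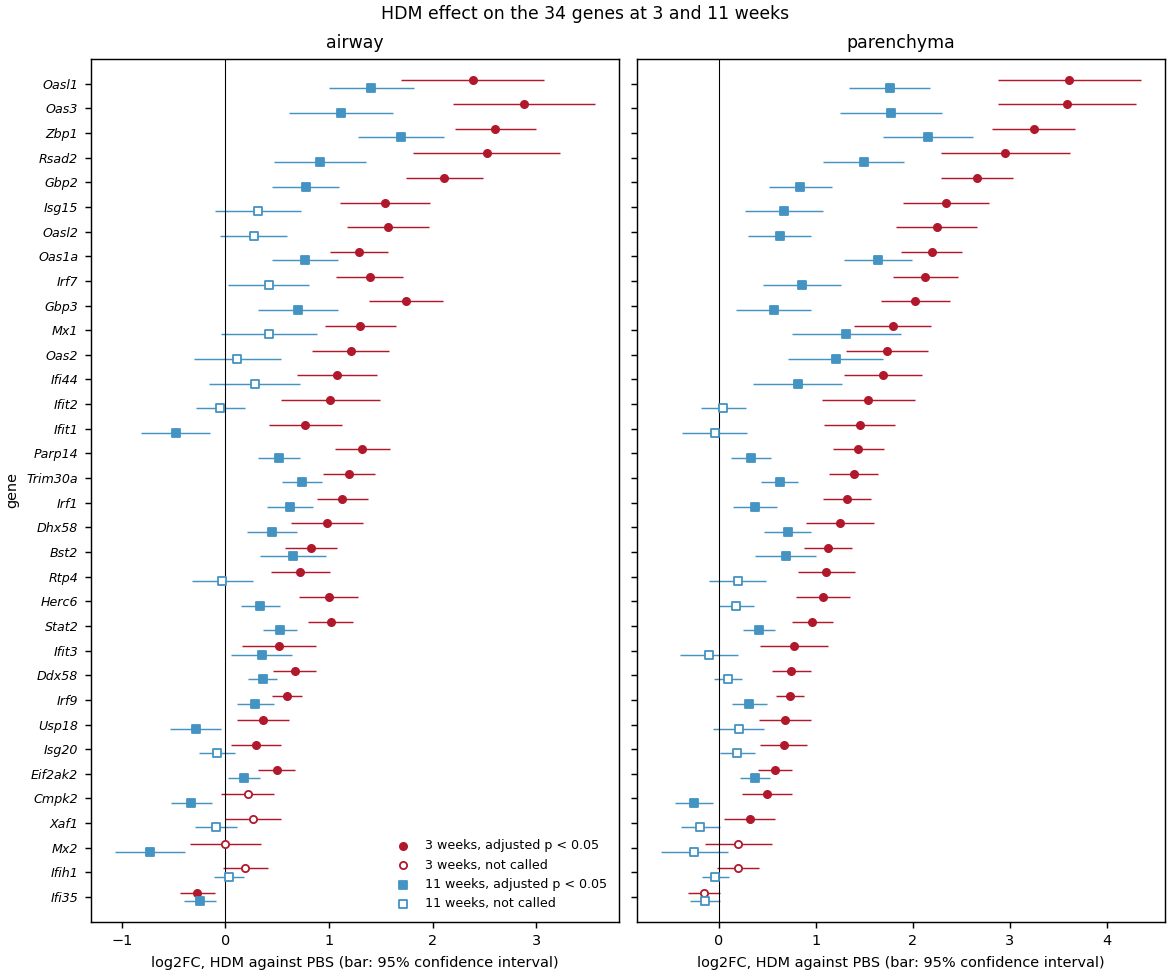
log2FC of HDM against PBS (x axis, with 95% confidence intervals) for the 34 genes (y axis, ordered by the parenchyma effect at 3 weeks), at 3 weeks in red circles and 11 weeks in blue squares, filled where the adjusted p was under 0.05. The 3-week values lie to the right of the 11-week values for nearly all genes, with medians of 1.01 and 0.34 in airway and 1.36 and 0.39 in parenchyma.

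All 4 transcription factors rose in both tissues. Irf7, the factor that amplifies interferon production, was at 23.2 to 47.4 CPM (median 26.6) in PBS airway and 52.8 to 170.6 CPM (median 78.9) in HDM airway. In parenchyma Irf7 was at 18.4 to 32.8 CPM (median 28.5) with PBS and 87.3 to 257 CPM (median 117.9) with HDM. Neither tissue had overlapping groups, and the rise was 2.63-fold in airway (log2FC 1.39 ± 0.16, adjusted p = 3.6e-10) and 4.36-fold in parenchyma (2.13 ± 0.17, adjusted p = 3.7e-15). Irf1, which interferon gamma also induces, was at 92.8 to 128.2 CPM (median 100.4) with PBS and 156.5 to 386 CPM (median 229.8) with HDM in airway, and at 116.4 to 151.97 CPM (median 128.5) and 230.0 to 487 CPM (median 356) in parenchyma, again without overlap. It rose 2.18-fold and 2.501-fold. Irf9 and Stat2, both subunits of ISGF3, rose by 0.60 ± 0.07 and 1.02 ± 0.11 in airway and by 0.73 ± 0.07 and 0.96 ± 0.10 in parenchyma.

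Among the sensors, Zbp1, which binds Z-form nucleic acid and can trigger cell death, had one of the largest rises. It was at 8.98 to 24.8 CPM (median 13.1) in PBS airway and 56.98 to 174.1 CPM (median 89.2) in HDM airway, and at 9.45 to 15.4 CPM (median 11.6) and 58.8 to 225 CPM (median 117.8) in parenchyma. All HDM libraries were above all PBS libraries, and the change was 6.09-fold in airway (log2FC 2.61 ± 0.19, adjusted p = 2.1e-15) and 9.48-fold in parenchyma (3.25 ± 0.21, adjusted p = 2e-17). The RNA helicases differed: Ddx58 (RIG-I) rose by 0.67 ± 0.10 in airway and 0.75 ± 0.10 in parenchyma and Dhx58 (LGP2) by 0.98 ± 0.17 and 1.25 ± 0.17, while Ifih1 (MDA5) was at 0.19 ± 0.11, adjusted p = 0.11 and 0.20 ± 0.11, adjusted p = 0.086. Eif2ak2, the kinase PKR that halts translation on double-stranded RNA, rose by 0.49 ± 0.09 and 0.57 ± 0.09.

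The OAS genes make a short adenylate signal that activates RNase L, or in the case of Oasl1 and Oasl2 are relatives of those enzymes, and all 5 rose in both tissues. Oas3 had the largest change of the 34 genes in airway and Oasl1 in parenchyma, where Oas3 came next. Oas3 rose 7.36-fold in airway (log2FC 2.88 ± 0.34, adjusted p = 6.3e-10) and 12-fold in parenchyma (3.58 ± 0.35, adjusted p = 3.3e-12). Oasl1 changed by 2.38 ± 0.34, adjusted p = 6.2e-08 and 3.61 ± 0.36, adjusted p = 7.2e-12. Oas2 was at 6.36 to 19.4 CPM (median 9.59) in PBS airway and 17.4 to 45.99 CPM (median 22.7) in HDM airway, where 9 of 10 HDM libraries exceeded the highest PBS library. In parenchyma Oas2 was at 4.36 to 11.2 CPM (median 8.04) with PBS and 17.8 to 50.8 CPM (median 24.3) with HDM, without overlap. It rose 2.31-fold and 3.33-fold. Oas1a and Oasl2 rose by 1.29 ± 0.14 and 1.57 ± 0.20 in airway and by 2.19 ± 0.16 and 2.24 ± 0.21 in parenchyma. Oas1a shares sequence with Oas1g and other copies, so its estimate depends on how reads were divided among them.

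The IFIT genes rose less than the OAS genes. Ifit1 was at 19.1 to 38.5 CPM (median 27.3) in PBS airway and 32.5 to 105.5 CPM (median 44.4) in HDM airway, and at 18.6 to 26.7 CPM (median 24.2) and 34.7 to 164.001 CPM (median 64.1) in parenchyma. The airway groups overlapped and the parenchyma groups did not, with log2FC of 0.77 ± 0.18 and 1.45 ± 0.18. For Ifit3, HDM values of 43.2 to 187.4 CPM (median 78.6) in airway and 85.6 to 300.2 CPM (median 138.9) in parenchyma overlapped the PBS values given above, with 5 and 9 of 10 HDM libraries above the highest PBS library. Its log2FC was 0.52 ± 0.18, adjusted p = 0.0084 and 0.77 ± 0.18, adjusted p = 0.00013, and Ifit2 changed by 1.01 ± 0.24 and 1.54 ± 0.24. Ifit3 has a close copy, Ifit3b, that was also counted.

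Of the large GTPases, Gbp2 reached the highest levels. It was at 46.9 to 79.6 CPM (median 70.3) in PBS airway and 157.03 to 566 CPM (median 266) in HDM airway, and at 64.9 to 85.96 CPM (median 72.6) and 256 to 916 CPM (median 488) in parenchyma. The groups stood apart in both tissues, and the rise was 4.33-fold (log2FC 2.11 ± 0.18) and 6.31-fold (2.66 ± 0.18). Gbp3 rose by 1.74 ± 0.18 and 2.02 ± 0.18. Gbp2 has a close copy outside the 34 genes, Gbp2b, that was also counted. Over all libraries Gbp2b was at 34.2 to 1561.7 CPM (median 82.4), and Gbp2 at 39.3 to 916 CPM (median 69.8). Mx1, whose protein is known to be defective in many inbred laboratory strains, was at 3.38 to 10.1 CPM (median 7.05) in PBS airway and 12.6 to 23.9 CPM (median 16.1) in HDM airway, and at 2.41 to 7.13 CPM (median 4.35) and 9.72 to 29.9 CPM (median 16.2) in parenchyma. Its groups did not overlap either, and it rose 2.47-fold and 3.46-fold, whereas Mx2, annotated as a polymorphic pseudogene, was at 0.00 ± 0.17, adjusted p = 1 in airway and 0.20 ± 0.17 in parenchyma.

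Isg15, the ubiquitin-like protein joined to targets during the response, was at 15.6 to 34.2 CPM (median 19.4) in PBS airway and 30.1 to 160.7 CPM (median 59.1) in HDM airway, with 9 of 10 HDM libraries above the highest PBS library. In parenchyma it was at 19.97 to 26.8 CPM (median 22.4) with PBS and 74.2 to 316 CPM (median 108.3) with HDM, with no overlap. Isg15 rose 2.90-fold and 5.06-fold, and its ligase Herc6 and its protease Usp18 rose by 0.997 ± 0.14 and 0.36 ± 0.13 in airway and 1.07 ± 0.14 and 0.68 ± 0.13 in parenchyma. Rsad2 (viperin, which makes a chain-terminating nucleotide) rose 5.74-fold in airway (log2FC 2.52 ± 0.35, adjusted p = 3.2e-08) and 7.75-fold in parenchyma (2.95 ± 0.33, adjusted p = 8.7e-11). Its neighbour on the chromosome, Cmpk2, a nucleotide kinase, was at 0.21 ± 0.13 and 0.49 ± 0.13. Bst2 was at 37.8 to 83.7 CPM (median 60.5) with PBS and 80.2 to 167.2 CPM (median 106.3) with HDM in airway, with overlap, and at 55.9 to 79.9 CPM (median 62.4) and 87.1 to 218 CPM (median 146.3) in parenchyma, without. It rose 1.78-fold and 2.17-fold. Ifi35 was the exception in direction, at -0.27 ± 0.08, adjusted p = 0.0038 in airway and -0.15 ± 0.08, adjusted p = 0.081 in parenchyma. The remaining effectors, Isg20, Trim30a, Ifi44, Rtp4, Xaf1 and Parp14, had log2FC between 0.27 (Xaf1) and 1.32 (Parp14) in airway and between 0.32 (Xaf1) and 1.69 (Ifi44) in parenchyma.

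Markers of leukocytes moved with HDM as well. All 4 pan-leukocyte genes (Ptprc, Cd52, Coro1a, Laptm5) rose in both tissues, and their summed level was 449 to 876 CPM with PBS and 844 to 2085 CPM with HDM in airway, and 604 to 845 CPM and 1604 to 2162 CPM in parenchyma. All 5 T cell, all 5 neutrophil and all 4 monocyte markers rose in both tissues, as did 5 of 6 macrophage markers. Of 5 plasmacytoid dendritic cell markers, 3 rose and 1 (Cox6a2) fell in airway and 4 rose in parenchyma, and of 2 NK cell markers none rose and both fell in parenchyma. No marker of these lists was at 0 in all libraries of a group. In bulk tissue more cells of a type and more RNA per cell cannot be told apart, and the part of cell composition in the changes of the 34 genes was not tested.

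The HDM effect was then compared between tissues by an interaction term. In this test 2 of 34 genes rose less in airway than in parenchyma, against 6.44% of all genes: Oas1a (-0.90 ± 0.21, adjusted p = 0.0031) and Irf7 (-0.73 ± 0.23, adjusted p = 0.024). The median difference over the 34 genes was -0.30, while Ifih1 (-0.01 ± 0.15) and Xaf1 (-0.05 ± 0.19) differed least. For Isg15 the difference was -0.80 ± 0.31, adjusted p = 0.064, with a 95% confidence interval from -1.42 to -0.18. The count of 2 changed with the fit, and the share of 6.44% is that of the main fit alone. The count was 5 by edgeR's quasi-likelihood test, 8 by DESeq2 and 9 by limma-voom with sets of 20 library codes as a block term. With neighbouring codes as a replicate block it was 4, the same genes with Ifit1 (-0.68 ± 0.23, adjusted p = 0.028) and Isg15 (-0.80 ± 0.28, adjusted p = 0.037). Without X103, the HDM airway library with the highest levels, 9 genes were called. X104, its neighbour by code in HDM parenchyma, had the highest levels there and was kept in that fit. Leaving out X103 alone lowers the airway side of the difference. With sets of library codes left out, of which 1 holds both libraries, 1 to 5 genes were called.

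At 11 weeks the same question was asked of mice that breathed air and received HDM or PBS. With HDM, 18 of 34 genes were higher with HDM in airway, against 31.3% of all genes, and 5 were lower (Mx2, Ifit1, Cmpk2, Usp18 and Ifi35), against 29.8%. In parenchyma 21 were higher, against 32.6%, and 1 was lower (Cmpk2), against 26.9%. The median log2FC of the 34 genes was 0.34 in airway and 0.39 in parenchyma, and of all genes 0.00 and 0.05. Libraries of the groups overlapped for all 34 genes in airway, where 10.5% of all genes had every HDM.AIR library above every PBS.AIR library. In parenchyma they overlapped for all but 4 (Zbp1, Oas1a, Oas2 and Oasl1), no larger a share of the 34 than the 11.8% of all genes. Without X109, which was the highest of its group for 27 of the 34 genes, 16 genes were higher in airway, with Eif2ak2 (0.14 ± 0.08, adjusted p = 0.12) and Ifit3 no longer called. Of the 4 pan-leukocyte markers all rose again in both tissues, with summed levels of 379 to 816 CPM in PBS.AIR and 1203 to 1616 CPM in HDM.AIR airway, while 4 of 5 airway markers were lower in HDM.AIR than in PBS.AIR airway. Their part in the result was not tested.

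Zbp1 had the largest rise. It was at 7.44 to 30.3 CPM (median 11.2) in PBS.AIR airway and 21.6 to 84.95 CPM (median 39.05) in HDM.AIR airway, and at 6.55 to 13.6 CPM (median 9.33) and 16.5 to 78.6 CPM (median 38.1) in parenchyma. The airway groups overlapped through 1 PBS.AIR library, X125, which was the highest of its group for 22 of the 34 genes, and the parenchyma groups did not overlap. The rise was 3.24-fold in airway (log2FC 1.70 ± 0.21, adjusted p = 2.8e-12) and 4.46-fold in parenchyma (2.16 ± 0.23, adjusted p = 4e-15). Oasl1 rose by 1.41 ± 0.21, adjusted p = 1.6e-09 in airway and 1.76 ± 0.21, adjusted p = 3.9e-13 in parenchyma. For Oas3 the values were 1.12 ± 0.25, adjusted p = 5.5e-05 and 1.77 ± 0.26, adjusted p = 2.2e-09, for Rsad2 0.91 ± 0.22, adjusted p = 0.00018 in airway, and for Oas1a 1.64 ± 0.18, adjusted p = 3e-15 in parenchyma.

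Gbp2 was at 49.6 to 94.8 CPM (median 67.3) in PBS.AIR airway and 68.7 to 269 CPM (median 103.9) in HDM.AIR airway, and at 68.3 to 130.1 CPM (median 87.5) and 79.4 to 279 CPM (median 133.8) in parenchyma, with overlap in both and log2FC of 0.77 ± 0.16 and 0.84 ± 0.16. Irf1 was at 77.005 to 114.2 CPM (median 102.6) and 104.5 to 259 CPM (median 129.7) in airway, and at 127.1 to 161.7 CPM (median 143.3) and 133.4 to 269 CPM (median 162.8) in parenchyma, also with overlap (0.62 ± 0.11 and 0.37 ± 0.12). Bst2 was at 27.4 to 82.97 CPM (median 52.02) and 50.8 to 153.8 CPM (median 75.3) in airway and at 41.8 to 81.8 CPM (median 62.8) and 53.3 to 155.3 CPM (median 90.4) in parenchyma (0.65 ± 0.16 and 0.69 ± 0.16). Gbp2, Irf1 and Bst2 were called higher in both tissues.

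Irf7, Isg15, Oas2 and Mx1 were called in parenchyma and not in airway. Irf7 was at 18.3 to 83.6 CPM (median 26.7) in PBS.AIR airway and 22.5 to 60.7 CPM (median 39.5) in HDM.AIR airway (0.42 ± 0.20, adjusted p = 0.058), and at 20.04 to 34.3 CPM (median 25.5) and 22.8 to 77.7 CPM (median 47.2) in parenchyma (0.85 ± 0.20, adjusted p = 0.00012). Isg15 was at 11.2 to 47.8 CPM (median 14.7) and 12.6 to 38.5 CPM (median 20.2) in airway (0.31 ± 0.21, adjusted p = 0.19) and 13.4 to 22.1 CPM (median 18.5) and 13.2 to 61.7 CPM (median 25.8) in parenchyma (0.67 ± 0.20, adjusted p = 0.0027). X125 was the highest PBS.AIR airway library for both genes, with the next at 38.4 CPM for Irf7 and 20.7 CPM for Isg15. It raises the PBS.AIR airway mean and so lowers these airway effects, and values without it are not given for this comparison. Oas2 was at 7.09 to 34.9 CPM (median 10.5) and 9.68 to 17.2 CPM (median 12.6) in airway and 4.44 to 8.99 CPM (median 6.62) and 8.99 to 24.3 CPM (median 14.5) in parenchyma, where the lowest HDM.AIR library stood just above the highest PBS.AIR library (0.11 ± 0.21 and 1.203 ± 0.25). Mx1 was at 3.28 to 11.1 CPM (median 4.76) and 4.42 to 11.5 CPM (median 7.69) in airway and 1.58 to 4.67 CPM (median 2.75) and 3.78 to 10.9 CPM (median 6.72) in parenchyma (0.42 ± 0.23 and 1.31 ± 0.28). A gene called in one tissue only is not thereby shown to differ between tissues: the test of that difference called 3 genes with a smaller effect in airway, against 14.9% of all genes, namely Oas2 (-1.09 ± 0.33, adjusted p = 0.0072), Oas1a (-0.87 ± 0.24, adjusted p = 0.0032) and Usp18 (-0.49 ± 0.18, adjusted p = 0.033), and 1 with a larger effect, Ddx58 (0.27 ± 0.10, adjusted p = 0.036), against 12.7%. Smaller and larger here refer to the signed log2FC. Irf9 (-0.02 ± 0.13) and Bst2 (-0.04 ± 0.23) differed least. With sets of library codes left out the first count was 2 to 5. With neighbouring codes as a replicate block 6 genes had a smaller effect in airway, the same 3 with Mx1 (-0.89 ± 0.31, adjusted p = 0.014), Mx2 and Isg20, and 2 a larger one, Ddx58 and Ifit3 (0.45 ± 0.17, adjusted p = 0.027). Without X109 Ddx58 was not called (0.22 ± 0.10, adjusted p = 0.085). In the same term 4 of 5 parenchyma markers were higher and 3 of 5 airway markers lower.

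The IFIT genes differed from one another. Ifit1 was at 16.8 to 59.2 CPM (median 29.8) in PBS.AIR airway and 15.6 to 31.8 CPM (median 21.5) in HDM.AIR airway, where it fell (-0.48 ± 0.17, adjusted p = 0.0098), and at 21.2 to 33.8 CPM (median 28.4) and 13.6 to 49.9 CPM (median 25.02) in parenchyma (-0.05 ± 0.17, adjusted p = 0.83). Ifit3 was at 56.2 to 104.9 CPM (median 65.5) in HDM.AIR airway, against the PBS.AIR values above, and was called higher (0.35 ± 0.15, adjusted p = 0.035), with X109 the highest library, and was not called without it (0.28 ± 0.15, adjusted p = 0.11). In parenchyma HDM.AIR values of 61.7 to 141.2 CPM (median 83.8) gave -0.10 ± 0.15, adjusted p = 0.57, and Ifit2 was at -0.05 ± 0.12 and 0.04 ± 0.12, adjusted p = 0.76. The other falls in airway were those of Mx2 (-0.73 ± 0.17, adjusted p = 9.4e-05), Cmpk2 (-0.33 ± 0.10, adjusted p = 0.0031), Usp18 (-0.29 ± 0.12, adjusted p = 0.037) and Ifi35 (-0.25 ± 0.08, adjusted p = 0.004), and Cmpk2 also fell in parenchyma (-0.26 ± 0.10, adjusted p = 0.02). Rtp4 (-0.03 ± 0.15) and Ifih1 (0.03 ± 0.07) in airway and Ifih1 (-0.04 ± 0.07) in parenchyma changed least.

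The HDM effect at 3 weeks was larger than at 11 weeks for most of the 34 genes when the difference itself was tested over the libraries of both times. In this test 30 genes were called in airway, against 13.9% of all genes, and 31 in parenchyma, against 20.9%. All had the higher signed log2FC at 3 weeks, which is what a larger effect means here and below. Some of these genes fell at 11 weeks. Mx2 in airway was at 0.00 ± 0.17 at 3 weeks and -0.73 ± 0.17 at 11 weeks. The median difference was 0.75 in airway and 0.94 in parenchyma. In airway it was largest for Oas3 (1.81 ± 0.39, adjusted p = 0.00013), Rsad2 (1.66 ± 0.37, adjusted p = 0.00019), Gbp2 (1.40 ± 0.24, adjusted p = 1.2e-06) and Oasl2 (1.36 ± 0.24, adjusted p = 3.7e-06). In parenchyma the largest were Oasl1 (1.98 ± 0.36, adjusted p = 1.9e-06), Gbp2 (1.94 ± 0.24, adjusted p = 6.8e-12), Oas3 (1.94 ± 0.41, adjusted p = 3.5e-05) and Isg15 (1.80 ± 0.29, adjusted p = 9.2e-08). Ifih1, Ifit3, Bst2 and Ifi35 in airway, and Oas2, Mx1 and Ifi35 in parenchyma, were not called, and Ifi35 differed least at 0.04 ± 0.11 and 0.11 ± 0.11, followed by Ifih1 in airway (0.22 ± 0.12) and Eif2ak2 in parenchyma (0.33 ± 0.11, adjusted p = 0.014).

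Leukocyte marker lists differed from one another in this test. Of 4 pan-leukocyte genes, none was called with a larger HDM effect at 3 weeks in either tissue and Laptm5 had a smaller one in airway, with medians of -0.03 and 0.05. None of the 5 T cell markers was called in either tissue. Of macrophage and neutrophil markers, 4 of 6 and 3 of 5 had a larger effect at 3 weeks in parenchyma. Their airway counts, and those of the monocyte, NK cell, B cell and plasmacytoid dendritic cell lists, are not given for this test. The part of cell composition in the difference was not tested. The 11 tested genes of an interferon gamma list were all called with a larger effect at 3 weeks in both tissues (medians 1.30 and 1.501). Time and the frequency of HDM dosing changed together, so their contributions cannot be told apart.

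The ligands of the pathway were at the limit of detection. The 18 type I interferon genes listed, Ifnb1 among them, had 2 to 12 counts in all the libraries of a group together, and 9 of the 18 had any. No library had more than 3 counts over the 18 genes, and 98 libraries had any, so none passed the filter and a difference between groups was not detectable at this depth. At 3 weeks the summed counts were 10 over 11 PBS and 7 over 10 HDM airway libraries and 7 over 12 PBS and 12 over 10 HDM parenchyma libraries. Ifnl2 and Ifnl3, the type III ligands, were not tested for the same reason. Ifng, the type II ligand made mainly by T and NK cells, rose with HDM by 2.77 ± 0.37 and 2.91 ± 0.34 at 3 weeks and by 2.25 ± 0.38 and 2.16 ± 0.35 at 11 weeks in airway and parenchyma.

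Of the 6 receptor genes, 4 rose and 1 fell with HDM at 3 weeks in airway, and 4 rose and 2 fell in parenchyma. The receptor chains Ifngr2, Ifnar1 and Ifnar2 rose by 1.16 ± 0.06, 0.69 ± 0.07 and 0.57 ± 0.07 in parenchyma at 3 weeks, and Ifngr1 fell by 0.18 on the log2 scale. Of 15 genes that lead to interferon production, 12 and 12 rose at 3 weeks, among them the sensor Tlr9 (2.92 ± 0.25 and 3.65 ± 0.33), Sting1 (1.71 ± 0.11 and 2.40 ± 0.12), the kinase Ikbke (1.21 ± 0.12 and 1.97 ± 0.14) and the factors Irf5 (1.36 ± 0.10 and 1.89 ± 0.10) and Irf8 (1.39 ± 0.11 and 1.74 ± 0.11), which had the largest changes in parenchyma, while Tlr3, a sensor of double-stranded RNA, fell in both tissues. Of 6 inhibitors 5 rose in each tissue, with Socs1 at 1.80 ± 0.24 and 2.60 ± 0.26, Socs3 at 1.86 ± 0.12 and 2.19 ± 0.12 and Ptpn6 at 1.72 ± 0.12 and 1.99 ± 0.12.

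Genes of the interferon gamma response had larger medians than the 34. Of 13 listed, 11 were tested and all 11 rose at 3 weeks in both tissues, with medians of 2.56 and 2.93. The chemokines Cxcl9 and Cxcl10 rose by 5.31 ± 0.50 and 4.29 ± 0.60 in airway and 7.25 ± 0.64 and 5.77 ± 0.70 in parenchyma, the GTPase Tgtp1 by 3.54 ± 0.25 and 4.26 ± 0.27, Ido1 by 3.27 ± 0.47 and 3.44 ± 0.43, and Igtp by 2.56 ± 0.20 and 2.999 ± 0.21. At 11 weeks 10 and 9 of 11 rose, with medians of 1.198 and 1.16. Gbp5 and Gbp6 were not analysed here. The E1 and E2 enzymes of ISG15 conjugation, Uba7 and Ube2l6, both rose at 3 weeks, by 0.67 ± 0.11 and 0.57 ± 0.13 in airway and 0.59 ± 0.11 and 0.75 ± 0.12 in parenchyma.

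Smoke without HDM changed few of the 34 genes. In airway 1 gene was lower, Cmpk2 (-0.32 ± 0.10, adjusted p = 0.016), against 6.03% of all genes, and none was higher. In parenchyma 4 were higher, against 17.7%, and 4 lower, against 18.2%. The 4 higher were Oas1a (0.75 ± 0.19, adjusted p = 0.00068), Rsad2 (0.58 ± 0.23, adjusted p = 0.038), Eif2ak2 (0.22 ± 0.08, adjusted p = 0.021) and Isg20 (0.22 ± 0.09, adjusted p = 0.048), and the 4 lower were Gbp3 (-0.78 ± 0.20, adjusted p = 0.00081), Cmpk2 (-0.40 ± 0.10, adjusted p = 0.00077), Xaf1 (-0.33 ± 0.10, adjusted p = 0.0061) and Stat2 (-0.31 ± 0.08, adjusted p = 0.0021). Irf7 in PBS.CS mice was at 20.7 to 41.8 CPM (median 30.7) in airway and 14.6 to 41.4 CPM (median 28.5) in parenchyma, overlapping the PBS.AIR values, and Isg15 was at 11.6 to 26.4 CPM (median 17.5) and 10.1 to 41.4 CPM (median 18.5). Oasl1 (0.00 ± 0.24) and Ifi35 (0.01 ± 0.08) in airway and Ifih1 (-0.01 ± 0.07) and Oasl2 (-0.04 ± 0.17) in parenchyma changed least. At an unadjusted p under 0.05, 1 gene was higher in airway, and edgeR's quasi-likelihood test and DESeq2 called 0 and 0 higher. With sets of library codes left out the airway count of lower genes was 0 to 3, and with neighbouring codes as a replicate block 2, Cmpk2 and Gbp3 (-0.53 ± 0.18, adjusted p = 0.036). The PBS.AIR airway group held X125, which was the highest there for 22 of the 34 genes. It raises the PBS.AIR airway mean and so lowers the smoke effect in airway. Counts without it are not given for this comparison. All 5 neutrophil and 4 of 6 macrophage markers rose with smoke in both tissues.

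The genes followed across groups overlapped between PBS.CS and PBS.AIR mice in both tissues. In PBS.CS airway Zbp1 was at 8.65 to 16.6 CPM (median 10.98), Gbp2 at 51.6 to 73.1 CPM (median 58.7), Ifit1 at 20.1 to 32.99 CPM (median 29.4) and Ifit3 at 30.4 to 78.1 CPM (median 63.8). Mx1 was at 4.04 to 10.7 CPM (median 6.81), Oas2 at 3.88 to 21.7 CPM (median 8.90), Irf1 at 78.1 to 113.9 CPM (median 101) and Bst2 at 33.6 to 69.9 CPM (median 57.7). None of these was called in airway, where log2FC ran from -0.36 (Oas2) to 0.31 (Mx1) over these 8 genes, Irf7 and Isg15. In PBS.CS parenchyma Zbp1 was at 6.16 to 12.1 CPM (median 8.52), Gbp2 at 60.2 to 84.99 CPM (median 72.8), Ifit1 at 17.2 to 35.4 CPM (median 24.4) and Ifit3 at 57.3 to 117.1 CPM (median 87.5). Mx1 was at 2.83 to 5.31 CPM (median 3.38), Oas2 at 2.51 to 8.11 CPM (median 4.57), Irf1 at 106.97 to 139.3 CPM (median 125.3) and Bst2 at 35.3 to 85.3 CPM (median 64.5). Again none of the 10 was called, with log2FC from -0.48 (Oas2) to 0.35 (Mx1).

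Smoke added to HDM lowered many of them. Comparing HDM.CS with HDM.AIR mice, 15 of 34 genes were lower in airway, against 10.1% of all genes, and 27 in parenchyma, against 14.1%, with medians of -0.30 and -0.48. Zbp1 was at 11.5 to 26.3 CPM (median 16.2) in HDM.CS airway, against 21.6 to 84.95 CPM (median 39.05) in HDM.AIR airway, and 7 of 10 libraries were below the lowest HDM.AIR library. In parenchyma the HDM.CS values were 8.52 to 25.4 CPM (median 13.4), with 9 of 10 below the lowest HDM.AIR library. The fall was to 0.427 of the HDM.AIR level in airway (log2FC -1.23 ± 0.20, adjusted p = 8.7e-07) and 0.334 in parenchyma (-1.58 ± 0.21, adjusted p = 2.3e-09). Gbp3 changed by -0.94 ± 0.20, adjusted p = 0.00017 and -1.20 ± 0.20, adjusted p = 6.6e-07, Ifi44 by -0.91 ± 0.23, adjusted p = 0.0024 and -1.21 ± 0.24, adjusted p = 4e-05, and Oas3 by -0.73 ± 0.24, adjusted p = 0.021 and -1.25 ± 0.24, adjusted p = 2e-05.

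In parenchyma Irf7 was at 22.8 to 77.7 CPM (median 47.2) with HDM.AIR and 16.8 to 51.6 CPM (median 23.4) with HDM.CS, and in airway it was at 17.6 to 46.7 CPM (median 25.6) with HDM.CS. Isg15 was at 8.63 to 24.7 CPM (median 14.1) in HDM.CS airway and 9.22 to 32.7 CPM (median 14.3) in HDM.CS parenchyma. Gbp2 was at 68.1 to 105.2 CPM (median 78.2) and 73.04 to 123.8 CPM (median 77.7), near its PBS.AIR ranges. The groups overlapped for these 3 genes, of which Irf7 and Gbp2 were called in both tissues and Isg15 in parenchyma alone. Oas2 was at 5.98 to 13.5 (median 8.45) CPM in airway and 4.54 to 11.5 (median 7.80) CPM in parenchyma of HDM.CS mice, Mx1 at 3.24 to 10.5 (median 6.29) and 2.74 to 8.18 (median 3.99), and Irf1 at 107.4 to 138.7 (median 116.8) and 116.3 to 164.5 (median 125.3). Bst2 was at 36.1 to 78.95 (median 64.3) CPM and 32.6 to 101.9 (median 61.9) CPM and Ifit1 at 11.4 to 36.7 (median 17.8) and 13.7 to 36.9 (median 17.7). Ifit3, at 54.96 to 96.2 (median 61.6) CPM and 57.4 to 119.8 (median 79.9) CPM, was not called in either tissue, nor were Ifih1 (-0.02 ± 0.07 and -0.06 ± 0.07) and Usp18 (0.09 ± 0.12 and 0.03 ± 0.13).

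The airway count rests partly on X109, the HDM.AIR airway library with parenchyma-like markers: without it 9 genes were called, with Irf1, Irf7, Oas1a, Oas2, Gbp2 and Bst2 no longer among them, and leaving out sets of codes gave 5 to 18. Other lists moved in the same comparison, with 10 and 11 of 11 interferon gamma genes, 2 and 3 of 4 pan-leukocyte genes, 4 and 5 of 5 T cell genes and 4 and 4 of 5 plasmacytoid dendritic cell genes lower in airway and parenchyma. The summed pan-leukocyte level in parenchyma was 1186 to 1756 CPM with HDM.AIR and 897 to 1148 CPM with HDM.CS. Their part in the result was not tested. Neutrophil markers were not called in either tissue.

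The interaction of HDM and smoke asks whether smoke changed the genes differently with HDM than without. In this term 15 of 34 genes had a lower value than the sum of the separate effects in parenchyma, against 18.7% of all genes, and 3 in airway, against 11.4%. The largest departures in parenchyma were those of Rsad2 (-1.63 ± 0.30, adjusted p = 3.7e-06), Zbp1 (-1.46 ± 0.35, adjusted p = 0.00035), Oas1a (-1.45 ± 0.24, adjusted p = 3.8e-07) and Oas3 (-1.35 ± 0.39, adjusted p = 0.0036), and the 3 in airway were Zbp1 (-1.09 ± 0.31, adjusted p = 0.0066), Oas1a (-0.74 ± 0.22, adjusted p = 0.011) and Eif2ak2 (-0.29 ± 0.11, adjusted p = 0.049). Rsad2 and Oas1a in parenchyma thus rose with smoke in PBS mice and fell with smoke in HDM mice. Usp18 and Ifih1 in airway (0.01 ± 0.17 and -0.01 ± 0.10) and Xaf1 and Ifit3 in parenchyma (0.01 ± 0.15 and 0.02 ± 0.21) departed least. In airway 7 genes were called without X125, 2 without X109 (Eif2ak2 at -0.26 ± 0.11, adjusted p = 0.097) and 0 to 4 with sets of codes left out. All 4 pan-leukocyte genes were also lower in this term in both tissues.

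Dexamethasone, a glucocorticoid used against airway inflammation, lowered the interferon response genes in each of the 4 exposure backgrounds. Against the same exposure without DEX, 21 of 34 genes were lower in airway of PBS.AIR mice, against 6.85% of all genes, and 23 in parenchyma, against 12%. In HDM.AIR mice the counts were 26 in airway, against 16%, and 31 in parenchyma, against 16.2%. In PBS.CS mice they were 24, against 6.6%, and 22, against 9.49%. In HDM.CS mice 9 were lower in airway, against 7.05%, and 15 in parenchyma, against 5.4%. One gene rose in 1 of these 8 comparisons, Isg20 in parenchyma of PBS.AIR mice (0.24 ± 0.09, adjusted p = 0.041), against 10.6% of all genes. Median log2FC of the 34 genes ran from -0.34 in HDM.CS airway to -0.64 in HDM.AIR parenchyma, with medians of all genes between -0.02 and 0.01. The PBS.AIR and HDM.AIR groups also serve the HDM and smoke comparisons above, so those values share libraries.

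**Figure D3:**
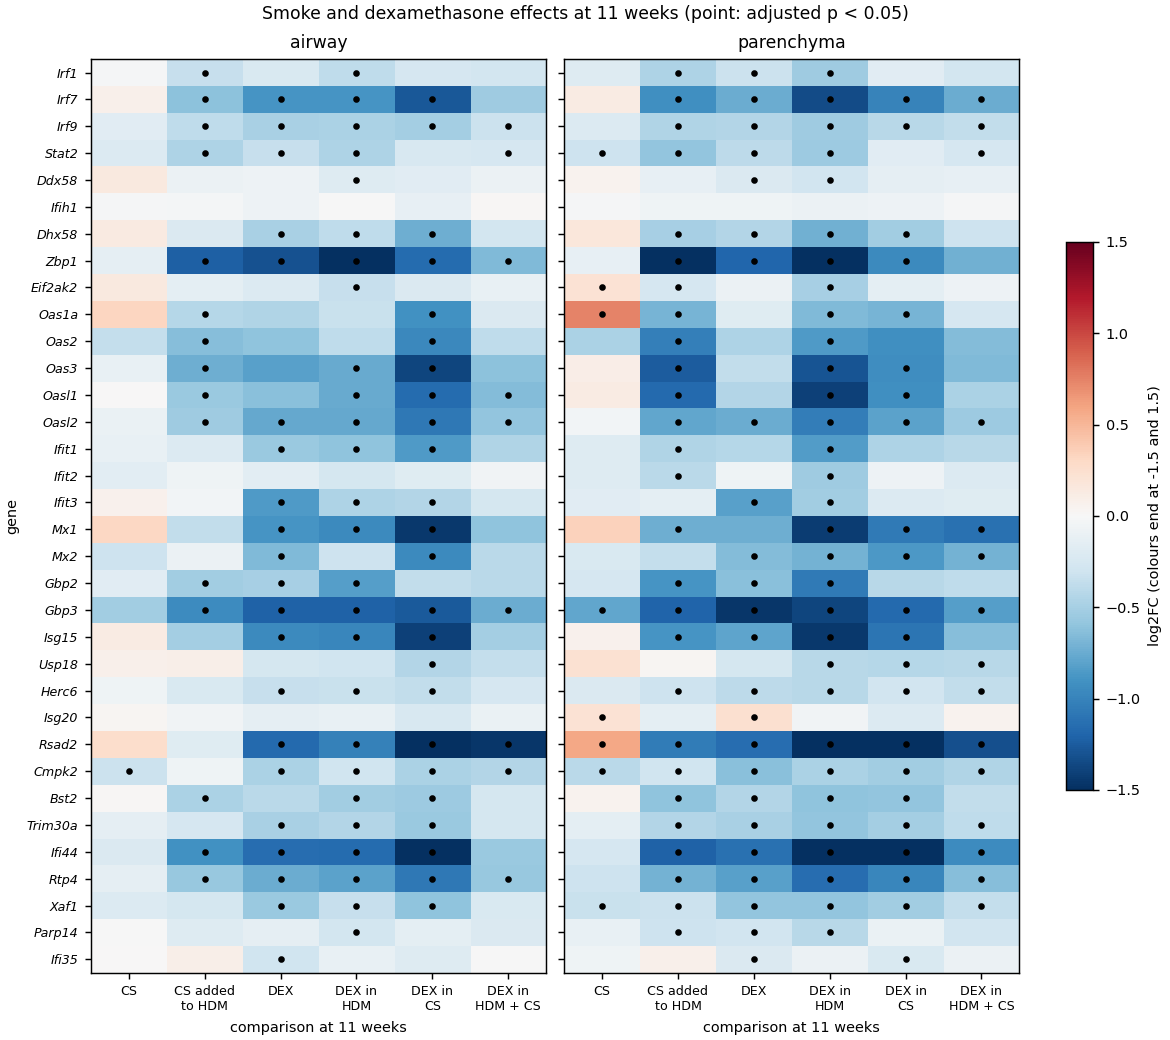
log2FC at 11 weeks (colour, blue lower and red higher, ending at -1.5 and 1.5) of the 34 genes (rows, by role) for smoke, smoke added to HDM and DEX in 4 backgrounds (columns), in airway and parenchyma, with a point where the adjusted p was under 0.05. Smoke alone gives pale columns with 1 and 8 points, and the DEX columns are mostly blue, with 31 points for DEX in HDM mice in parenchyma.

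Irf7 fell in 7 of the 8 comparisons. With DEX it was at 8.59 to 31.8 (median 16.2), 12.1 to 61.1 (median 18.5), 9.56 to 22.4 (median 11.7) and 11.2 to 55.8 (median 14.99) CPM in airway of PBS.AIR, HDM.AIR, PBS.CS and HDM.CS mice, the order used for the genes that follow. The groups with and without DEX overlapped in each background, and the log2FC in airway was -0.88 ± 0.22, -0.89 ± 0.21, -1.28 ± 0.23 and -0.53 ± 0.21. The last was not called (adjusted p = 0.11), and there 1 DEX library, X39, was the highest of both groups. In parenchyma Irf7 with DEX was at 11.3 to 23.8 (median 15.8), 11.2 to 26.9 (median 17.4), 9.18 to 27.9 (median 13.4) and 11.7 to 21.6 (median 13.7) CPM. All 4 falls in parenchyma were called, at -0.74 ± 0.23, -1.34 ± 0.22, -1.003 ± 0.23 and -0.75 ± 0.23.

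Isg15 with DEX was at 5.46 to 14.1 (median 7.73), 5.49 to 19.9 (median 9.12), 4.81 to 9.30 (median 6.39) and 6.54 to 26.8 (median 8.78) CPM in airway, where every PBS.CS.DEX library was below every PBS.CS library. In parenchyma it was at 7.02 to 16.5 (median 10.6), 5.67 to 20.1 (median 9.02), 5.64 to 17.9 (median 7.55) and 7.91 to 12.4 (median 9.38) CPM. It fell in each background other than HDM.CS in both tissues, with -1.45 ± 0.23, adjusted p = 1.9e-07 in HDM.AIR parenchyma and -1.40 ± 0.25, adjusted p = 1.7e-05 in PBS.CS airway. Such a lack of overlap in PBS.CS airway was seen for 9 of 34 genes, against 0.334% of all genes.

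Zbp1 with DEX was at 2.65 to 7.17 (median 5.002), 7.91 to 41.2 (median 10.6), 3.10 to 8.73 (median 4.76) and 7.18 to 26.9 (median 9.70) CPM in airway and 2.09 to 5.98 (median 4.06), 7.42 to 40.6 (median 10.7), 2.14 to 8.22 (median 3.89) and 6.42 to 10.99 (median 8.69) CPM in parenchyma. In PBS.AIR mice all DEX libraries were below all libraries without DEX in both tissues, and in HDM.AIR mice the groups overlapped. Its log2FC was -1.31 ± 0.28, adjusted p = 0.00033 in PBS.AIR airway, -1.19 ± 0.32, adjusted p = 0.0034 in PBS.AIR parenchyma, -1.495 ± 0.21, adjusted p = 1.6e-09 in HDM.AIR airway and -1.56 ± 0.22, adjusted p = 2.2e-09 in HDM.AIR parenchyma. Among the 4 largest falls of most of these comparisons were also Rsad2, Gbp3 and Ifi44, a protein of the response whose function is little known. Rsad2 changed by -1.17 ± 0.28, -1.01 ± 0.23, -1.74 ± 0.30 and -1.46 ± 0.25 in airway and -1.15 ± 0.29, -1.88 ± 0.23, -2.17 ± 0.29 and -1.32 ± 0.26 in parenchyma over the 4 backgrounds, Gbp3 by -1.21 ± 0.21, -1.21 ± 0.20, -1.27 ± 0.23 and -0.74 ± 0.21 and -1.46 ± 0.21, -1.38 ± 0.20, -1.17 ± 0.23 and -0.83 ± 0.21, and Ifi44 by -1.14 ± 0.25, -1.15 ± 0.24, -1.71 ± 0.29 and -0.56 ± 0.26 and -1.11 ± 0.28, -1.64 ± 0.27, -1.65 ± 0.33 and -0.94 ± 0.30. All of these were called except Ifi44 in HDM.CS airway (adjusted p = 0.19).

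The GTPases Gbp2 and Mx1 were called in some backgrounds and not in others. Gbp2 with DEX was at 42.5 to 51.99 (median 47.6), 41.8 to 167.8 (median 59.3), 39.3 to 53.7 (median 46.9) and 53.5 to 75.5 (median 61.1) CPM in airway and 42.6 to 67.8 (median 59.1), 47.4 to 207 (median 63.3), 42.9 to 62.9 (median 57.6) and 57.5 to 74.5 (median 64.1) CPM in parenchyma. It fell in PBS.AIR and HDM.AIR mice in both tissues, at -0.49 ± 0.16 and -0.83 ± 0.16 in airway and -0.63 ± 0.16 and -1.06 ± 0.16 in parenchyma, and was not called in either smoke background, at -0.37 ± 0.16 and -0.40 ± 0.16 in airway and -0.42 ± 0.16 and -0.38 ± 0.16 in parenchyma. Whether the backgrounds differed in the DEX effect was not tested. Mx1 with DEX was at 1.17 to 5.26 (median 3.83), 2.30 to 6.70 (median 3.42), 0.873 to 5.39 (median 2.53) and 2.20 to 21.5 (median 3.26) CPM in airway and 0.152 to 4.39 (median 2.01), 1.67 to 3.78 (median 2.62), 0.946 to 5.28 (median 1.46) and 1.10 to 3.26 (median 1.86) CPM in parenchyma. It was called lower in all but HDM.CS airway and PBS.AIR parenchyma, with -1.44 ± 0.28, adjusted p = 5.1e-05 in PBS.CS airway.

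Oas2 with DEX was at 3.99 to 22.3 (median 7.35), 3.93 to 19.7 (median 10.1), 2.47 to 9.52 (median 4.94) and 4.48 to 11.3 (median 5.84) CPM in airway and 2.65 to 8.49 (median 4.89), 4.63 to 14.9 (median 6.91), 1.44 to 5.10 (median 2.56) and 3.07 to 7.19 (median 4.804) CPM in parenchyma. It passed the test in 2 of the 8 comparisons, HDM.AIR parenchyma (-0.85 ± 0.24) and PBS.CS airway (-0.97 ± 0.27). Irf1 with DEX was at 62.1 to 105.4 (median 82.1), 86.5 to 212 (median 108.97), 63.6 to 94.3 (median 85.1) and 83.97 to 120.9 (median 98.2) CPM in airway and 99.9 to 124.9 (median 113.3), 92.9 to 239 (median 110.2), 85.2 to 149.7 (median 110.2) and 94.4 to 119.5 (median 109.03) CPM in parenchyma. It was called lower in HDM.AIR mice in both tissues (-0.38 ± 0.11 and -0.53 ± 0.12) and in PBS.AIR parenchyma (-0.33 ± 0.11). Every PBS.AIR.DEX parenchyma library was below every PBS.AIR parenchyma library for Irf1, which was one of 6 genes with no overlap in that comparison, against 2.3% of all genes.

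Ifit1 with DEX was at 14.4 to 36.1 (median 18.7), 8.47 to 23.3 (median 13.2), 11.97 to 18.9 (median 14.8) and 9.03 to 30.4 (median 13.1) CPM in airway and 16.7 to 29.9 (median 19.5), 10.4 to 24.6 (median 13.2), 11.9 to 32.9 (median 15.6) and 10.5 to 18.5 (median 13.97) CPM in parenchyma. The PBS.CS.DEX airway values of Ifit1 were all below the PBS.CS airway range, and its log2FC there was -0.85 ± 0.18. Ifit3 with DEX was at 22.4 to 34.1 (median 31.9), 32.01 to 78.5 (median 49.04), 19.7 to 57.3 (median 50.2) and 39.4 to 75.4 (median 54.6) CPM in airway and 39.7 to 64.8 (median 55.5), 39.4 to 84.4 (median 68.2), 62.8 to 103.9 (median 72.5) and 56.6 to 88.1 (median 69.1) CPM in parenchyma. Its PBS.AIR.DEX parenchyma libraries were all below the PBS.AIR libraries, with -0.81 ± 0.15, and its airway change in the same mice was -0.85 ± 0.15. Bst2 with DEX was at 24.4 to 52.3 (median 39.7), 37.1 to 101 (median 56.6), 25.5 to 42.1 (median 37.9) and 39.2 to 72.95 (median 49.8) CPM in airway and 31.2 to 55.7 (median 44.8), 40.1 to 106.3 (median 56.4), 28.5 to 58.7 (median 43.5) and 29.7 to 59.9 (median 48.8) CPM in parenchyma. Bst2 was called lower in HDM.AIR mice in both tissues (-0.52 ± 0.16 and -0.61 ± 0.16), in PBS.CS mice in both (-0.55 ± 0.16 and -0.59 ± 0.16) and in PBS.AIR parenchyma (-0.44 ± 0.16).

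In HDM.CS mice the largest falls with DEX were those of Rsad2 (-1.46 ± 0.25, adjusted p = 5.2e-06), Gbp3 (-0.74 ± 0.21, adjusted p = 0.0095), Zbp1 (-0.67 ± 0.23, adjusted p = 0.047) and Oasl1 (-0.65 ± 0.21, adjusted p = 0.028) in airway, and of Rsad2 (-1.32 ± 0.26, adjusted p = 0.00018), Mx1 (-1.11 ± 0.33, adjusted p = 0.018), Ifi44 (-0.94 ± 0.30, adjusted p = 0.033) and Gbp3 (-0.83 ± 0.21, adjusted p = 0.0053) in parenchyma. With sets of library codes left out, 5 to 11 genes were called in HDM.CS airway, 8 to 14 in HDM.CS parenchyma and 17 to 27 in HDM.AIR airway. Without X109, 22 genes were lower in HDM.AIR airway. Without X32, the library of lowest depth, 31 genes were lower in HDM.AIR parenchyma. The genes called in all 8 DEX comparisons were Irf9, Oasl2, Gbp3, Rsad2, Cmpk2 and Rtp4. Of these, Cmpk2 was not called in HDM.AIR airway without X109 (-0.24 ± 0.11, adjusted p = 0.093). Ifih1 was called in none of the 8, with log2FC between -0.13 and 0.01. Others with the smallest changes were Ddx58 (-0.07 ± 0.07) in PBS.AIR airway, Ifi35 (-0.11 ± 0.08) in HDM.AIR airway, Parp14 (-0.15 ± 0.10) in PBS.CS airway, Ifit2 (-0.06 ± 0.12 and -0.08 ± 0.12) in PBS.AIR and PBS.CS parenchyma and Isg20 (-0.05 ± 0.09) in HDM.AIR parenchyma.

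Leukocyte markers moved with DEX too. Of 4 pan-leukocyte genes, 3 fell in airway and 3 in parenchyma of PBS.AIR mice, 3 and 3 in HDM.AIR mice, 4 and 4 in PBS.CS mice and 3 and 2 in HDM.CS mice. Their summed level in parenchyma was 1186 to 1756 CPM in HDM.AIR and 801 to 1120.5 CPM in HDM.AIR.DEX. All 4 B cell markers fell in each of the 8 comparisons, 4 or 5 of 5 T cell markers and 3 or 4 of 5 plasmacytoid dendritic cell markers, with Siglech changing by -2.94 ± 0.39 in HDM.AIR parenchyma. Of 6 macrophage markers 1 fell in HDM.AIR airway and 2 in parenchyma, no neutrophil marker was called lower, and 4 of 5 parenchyma markers rose with DEX in HDM.AIR airway. All 11 interferon gamma genes fell in HDM.AIR mice in both tissues, and Ifng changed by -1.36 ± 0.34 and -1.34 ± 0.32. The part of these cells in the falls of the 34 genes was not tested.

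**Figure D4:**
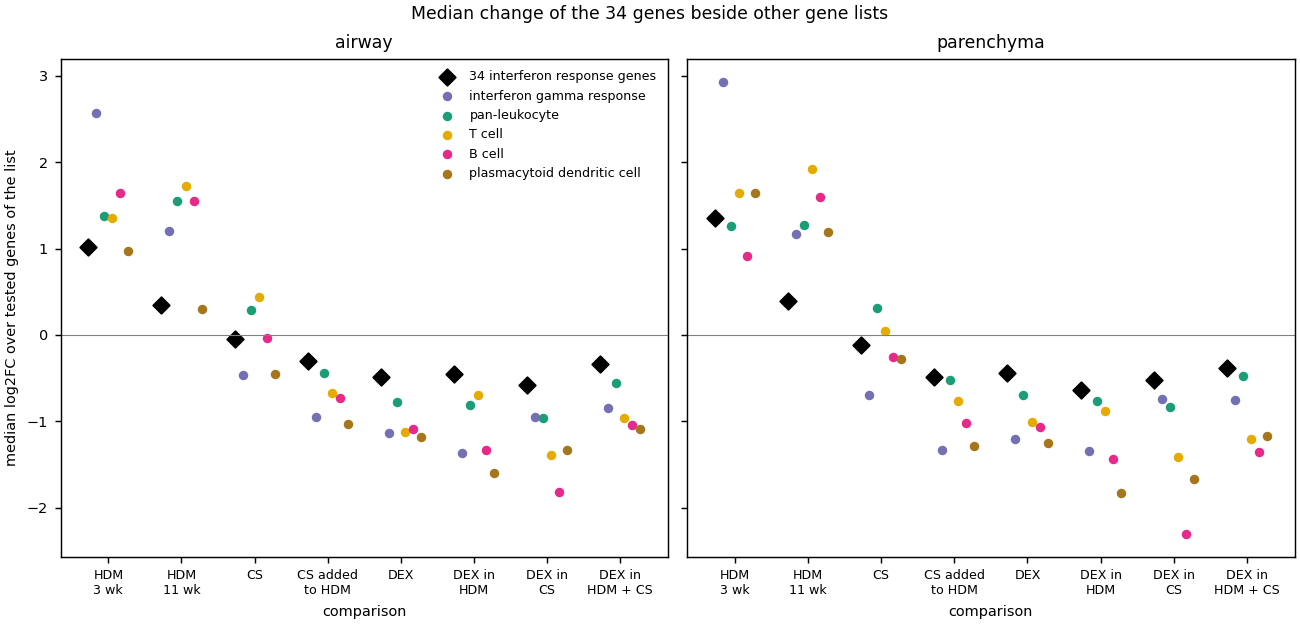
Median log2FC (y axis) of the 34 interferon response genes (black diamonds) and of 5 other gene lists (circles) in 8 comparisons (x axis), in airway and parenchyma. From 3 to 11 weeks of HDM the median of the 34 genes goes from 1.36 to 0.39 in parenchyma while that of the pan-leukocyte genes goes from 1.26 to 1.27. Macrophage, monocyte, neutrophil and NK cell markers are not drawn. Some macrophage and neutrophil markers had a larger HDM effect at 3 weeks in parenchyma.

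Within groups, the 34 genes rose and fell together from library to library. As a description over all libraries, the deviation of each gene's log2 CPM from its group mean was correlated with the median deviation of the other 33. Oasl2 (r = 0.88) and Rtp4 (r = 0.86) were the closest to the rest, and Ifi35 (r = 0.34) and Isg20 (r = 0.35) the farthest. These points share library depth and tissue composition. Taking the mean of the 34 centred log2 levels per library, values ran from 0.98 to 2.48 in HDM parenchyma at 3 weeks and from -0.95 to -0.39 in PBS.CS.DEX airway, the groups with the highest and lowest means.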

How the data were processed

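Bulk RNA-seq of mouse lung airway and parenchyma was analysed in 203 libraries. The authors deposited a table of expected counts per gene for 43346 Ensembl identifiers. The submitters' processing notes name bcl2fastq 2.20.0.422, STAR 2.5.1b, RSEM 1.2.31, kallisto 0.44.0 and the build mm10, and do not say which tool made the table. Of the non-zero estimated counts deposited by the authors, 20.3% were not whole, so values were rounded. Symbols came from GENCODE M21 by unversioned identifier for 42462 identifiers. The other 884 were not matched, and 53.3% of all identifiers carried the M21 version number. Promoter windows were those of RefSeq (GRCm38.p6).

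A gene was kept if 9 libraries or more reached the CPM that 10 counts make in the library of median depth. This left 17381 genes at 3 weeks (43 libraries), 18250 at 11 weeks (160 libraries) and 18528 in the fit of all 203. Counts were scaled by TMM (edgeR 4.0.16) and fitted by limma-voom (limma 3.58.1, R 4.3.3) with one mean per group, with Benjamini-Hochberg adjustment over all genes of a fit. The script was tested on simulated data. The lowest chi-square per degree of freedom between any pair of libraries of one group was 8.51, so no library was taken for a duplicate. The total count per library limits the precision of genes at few counts.

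The 34 genes and the lists of related genes were chosen with earlier results of these data known. In each comparison, the genes named were at most the 4 largest rises and the 4 largest falls among those called and the 2 smallest changes, and levels by group were given for Irf7, Isg15, Ifit1, Ifit3, Oas2, Mx1, Gbp2, Irf1, Zbp1 and Bst2. From each list of related genes at most 5 were named, by size of change. Genes outside these rules were named after their values were seen.

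The alternatives were the edgeR quasi-likelihood test, DESeq2 1.42.0, the scaling of DESeq2 used in limma-voom, a filter at 10 CPM, no filter, one tissue alone, sets of 20 consecutive library codes as a block term, and leaving out each of these 11 sets. After the data were seen, airway and parenchyma libraries with consecutive codes and the same exposure were taken as a replicate block (duplicateCorrelation in limma), single libraries (X32, X103, X104, X109, X125) were left out, and close copies of Ifit1, Ifit3, Oas1a, Trim30a, Ifi44 and Gbp2 were summed with them. A list of signalling genes is not reported here.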

Additional observations from a re-analysis of the deposited data

Results flagged for a closer look

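In groups of 10 libraries, a library was singled out where its gap to the next, as a share of the whole range of the group, passed 0.466 on the log2 CPM scale. Values below are in CPM. This was done for the 10 genes whose levels are described in every group. It singled out 23 of 180 sets of values, where 1 in 20 would be 9. The 10 genes were measured in the same libraries, so 1 library can be counted more than once. The sets are therefore not independent, and 23 beside 9 is not a test. Libraries X38 and X39 held 4 each, and X125, X103 and X76 held 2 each.

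In HDM airway at 3 weeks, X103 stood at 170.6 CPM for Irf7, with the next library at 96.2, and at 105.5 CPM for Ifit1, with the next at 55.7. In PBS.AIR airway, X125 stood at 83.6 CPM for Irf7 (next 38.4) and at 47.8 CPM for Isg15 (next 20.7). In HDM.AIR airway, X109 stood at 104.9 CPM for Ifit3 (next 73.1).

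Among the smoke groups, X38 of HDM.CS parenchyma was the highest for Irf7 at 51.6 CPM (next 30.2), Ifit1 at 36.9 (next 22.5), Mx1 at 8.18 (next 4.81) and Gbp2 at 123.8 (next 93.3). The airway library X37 of HDM.CS was the highest for Irf7, at 46.7 CPM (next 28.2).

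With DEX, X39 of HDM.CS.DEX airway was the highest for Irf7 at 55.8 CPM (next 22.8), Ifit1 at 30.4 (next 17.1), Mx1 at 21.5 (next 5.28) and Zbp1 at 26.9 (next 13.4). X76 of PBS.CS.DEX parenchyma was the highest for Ifit3 at 103.9 CPM (next 79.6) and Mx1 at 5.28 (next 2.22). X75 of PBS.CS.DEX airway was the highest for Irf7, at 22.4 CPM (next 14.5). X188 of PBS.AIR.DEX parenchyma was the highest for Ifit1, at 29.9 CPM (next 22.4), and X148 of that group was the lowest for Mx1, at 0.152 CPM (next 0.844).

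X66 of PBS.AIR parenchyma was the highest for Gbp2, at 130.1 CPM (next 95.96). Bst2 was singled out only on the low side, in X185 of PBS.AIR airway at 27.4 CPM (next 49.2), X195 of PBS.CS.DEX airway at 25.5 CPM (next 33.8) and X180 of HDM.CS.DEX parenchyma at 29.7 CPM (next 42.3).

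Effects that differed between conditions were found by interaction terms in limma-voom, at an adjusted p under 0.05. The HDM effect was lower in airway than in parenchyma for 2 of 34 genes at 3 weeks, against 6.44% of all genes, and at 11 weeks it was lower for 3, against 14.9%, and higher for 1, against 12.7%. The effect of HDM and smoke together was below the sum of both for 3 genes in airway, against 11.4%, and 15 in parenchyma, against 18.7%. The HDM effect was higher at 3 weeks than at 11 weeks for 30 genes in airway, against 13.9%, and 31 in parenchyma, against 20.9%. The tissue counts and the airway count of 3 are shares of the 34 no larger than those over all genes.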

How the results depend on the processing

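Over the alternatives planned for the 24 comparisons, the genes named kept their side of the threshold in 2550 of 2675 cases. A change of sign in a gene called in neither fit was counted among these 2550. Of the rest, 21 became called, none changed sign while called and the others were no longer called. The counts of the 34 genes called stayed within 1.5 times in 384 cases and moved further in 26. Among alternatives added after the data were seen, 431 single-gene values kept their side of the threshold. Of the others, 6 lost their call, 1 gained it and none changed sign while called. For the counts, 62 stayed within 1.5 times while 6 did not. The labels give no replicate number shared between groups. Airway and parenchyma libraries of consecutive codes and like exposure were taken as a replicate block after the data were seen, which left 1 library alone and gave a correlation within pairs of 0.13 at 3 weeks and 0.35 at 11 weeks. Under this block the counts lower for the HDM effect in airway against parenchyma were 4 at 3 weeks and 6 at 11 weeks, the smoke count in airway was 2, and the 11-week PBS.AIR count higher in airway was 9 in place of 5. It changed no call of a gene named by the rule in its comparison. The cause of the moves below was not tested. Shares over all genes in the text are those of the main fit, and none is given for the alternatives.

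Genes with a lower HDM effect in airway than in parenchyma at 3 weeks numbered 2 in the text. The count was 5 by the edgeR quasi-likelihood test, 8 by DESeq2 and 5 with a CPM of at least 10. It was 9 with the code set as a block term, 1 to 5 when each code set was left out, and 9 without X103, with X104 kept. Genes lower with smoke in airway (1 in the text) numbered 2 with the block term and 0 to 3 when code sets were left out. Where smoke was added to HDM in airway, 15 became 5 to 18 when code sets were left out, with 5 without the sixth set, and 9 without X109. The count below additivity for HDM and smoke in airway (3) was 1 by edgeR, 1 by DESeq2, 5 with the block term, 0 to 4 when code sets were left out, with 0 without the sixth set, and 7 without X125. For DEX in airway, 26 in HDM mice became 17 to 27, with 17 without the sixth set, and 9 in HDM.CS mice became 5 to 11. For DEX in HDM.CS parenchyma, 15 became 8 to 14. The 11-week count of genes with a lower HDM effect in airway (3) ran from 2 to 5, and the 3-week PBS count of genes lower in airway (6) from 3 to 6. Depth limits mainly the genes at low levels, such as Mx1 and Oas3.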

Other observations

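Library codes run in sequence, and 101 pairs of consecutive codes held an airway and a parenchyma library of the same exposure. The labels do not say that such neighbours came from the same mouse. After the group mean was taken away on the log2 CPM scale, the airway and parenchyma values of neighbours moved together for each of the 10 genes described by group. The correlation was largest for Bst2, with Pearson's r = 0.71 and Spearman's rho = 0.60 (permutation test, two-sided, adjusted p = 1.2e-05 and 1.4e-05 over 10 genes, from the smallest p that 100000 permutations can give). Without the 2 pairs farthest from the median airway value it was 0.69. For Irf7 Pearson's r was 0.57, Spearman's rho was 0.60 and r without the farthest pairs was 0.67, with the same adjusted p. Mx1 had the smallest values, with r = 0.27 (adjusted p = 0.0064 by permutation), rho = 0.35 (adjusted p = 0.00051) and r = 0.26 without the farthest pairs. Set against the parenchyma library of the next pair, over 100 such pairs, r ran from -0.10 for Mx1 to 0.37 for Bst2. The tests of the report treat these libraries as separate, other than where a replicate block of neighbouring codes is named.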
